A study of Homo sapiens with 9 samples.

Results

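The genes described here are 10 feedback genes of the RAS-ERK pathway: the dual-specificity phosphatases DUSP1, DUSP4, DUSP5 and DUSP6, the Sprouty genes SPRY2 and SPRY4, the SPRED genes SPRED1 and SPRED2, and the transcription factors ETV4 and ETV5. They were chosen by symbol, and every probe set that the platform's annotation gives to 1 of those symbols was taken, which yielded 25 of the 54675 probe sets on the array. Of the 25, 23 passed a filter on low values that kept 33970 probe sets in all. The arrays hold RNA of the human prostate cancer line PC3 after 48 h of culture. In OB SostKO (2 arrays) the PC3 cells shared the well with osteoblasts of Sost knockout mice. In OB WT + rhDKK1 (2 arrays) and OB WT + rhSOST (3 arrays) they shared it with wild type mouse osteoblasts and 100 ng/ml of recombinant human DKK1 or SOST, both secreted Wnt antagonists. Untreated PC3 (2 arrays) grew alone. The mouse cells were primary calvarial osteoblasts of neonates, the wild type ones from C57BL/6 mice whose substrain the sources give both as J and as N, kept apart from the PC3 cells by a culture insert. Wild type osteoblasts without added protein are on no array analysed here. Each co-culture therefore differs from untreated PC3 by the presence of osteoblasts and, in 2 of the 3, also by the added protein, and these cannot be told apart.

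ERK is a kinase that growth factor receptors switch on through RAS, RAF and MEK. Active ERK raises the transcription of its own brakes. DUSP phosphatases take phosphates off MAP kinases, Sprouty and SPRED proteins hold back the step from the receptor to RAF, and ETV4 and ETV5 are ETS transcription factors induced along the same route. The RNA of these genes is therefore widely read as an output of the pathway in epithelial tumor cells, although DUSP1 is also an immediate early gene that stress and cytokine signals induce.

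The values were deposited on the log2 scale after RMA, which subtracts background, gives all arrays 1 common distribution and reduces the probes of a probe set to 1 value. A difference of 1 is thus a factor of 2 in signal. Where a gene has several probe sets they are numbered here by mean signal over the 9 arrays, with 1 the brightest, and the plots give the array's own identifier beside each number. The numbers are names, since levels of different probe sets are not comparable. A change was counted (called) at a Benjamini-Hochberg adjusted p under 0.05 in limma, adjusted over all 33970 kept probe sets. The 3 co-cultures were each compared with the same 2 untreated PC3 arrays, so their results are not independent of each other. The PC3 and epithelial markers KRT8, KRT18, KRT19, EPCAM, VIM and CDH1 lay at the 97.4th to the 99.4th percentile of all probe sets. KLK3, known to be absent or very low in PC3, lay at the 67.3th. Of 8 osteoblast markers measured, 4 passed the filter, and the mean log2 value over the 8 was 5.44 to 5.66 on the co-culture arrays and 5.51 to 5.64 on the untreated arrays. RUNX2 and COL1A1 passed at percentiles 83.7 and 85, and IBSP and ALPL at 43 and 38.9. COL1A1 spanned 8.68 to 9.77 on the co-culture arrays and 8.92 to 9.13 on the untreated arrays. SP7, COL1A2, DMP1 and SOST itself were under the filter. The poly-A control RNAs, added during labeling, averaged log2 6.65 ± 0.28 (SD, n = 7) on the co-culture arrays and 11.32 ± 0.48 (SD, n = 2) on the untreated arrays (two-sided exact permutation p = 0.0278, which is as low as 7 against 2 arrays can go). The 3′ minus 5′ signal of ACTB was 1.38 ± 0.33 (SD, n = 7) and 0.69 ± 0.27 (SD, n = 2) on the same arrays (exact permutation p = 0.0278). The hybridization controls averaged 10.35 ± 0.12 (SD, n = 7) and 10.92 ± 0.48 (SD, n = 2) (exact permutation p = 0.0278). The 3′ minus 5′ signal of GAPDH did not differ, with 0.20 ± 0.10 (SD, n = 7) and 0.19 ± 0.065 (SD, n = 2) (exact permutation p = 0.917). The controls other than GAPDH moved with every comparison with untreated PC3 given here, and their part in the results was not tested.

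Among the feedback genes, DUSP1 was called lower with each co-culture, and SPRY2 with OB WT + rhDKK1 and OB WT + rhSOST. At single probe sets, DUSP4 was called higher only in the mean of the co-cultures, and the other genes did not pass the test. That 1 rise is 4.35% of the 23 probe sets, near the share of all kept probe sets called higher (4.44%). With OB SostKO, 1 of 23 probe sets was called, a fall of DUSP1, where 1.62% of all kept probe sets were called (0.901% higher and 0.718% lower). With OB WT + rhDKK1, 2 were called, both lower, with 1.75% of all called (1.03% higher and 0.721% lower). With OB WT + rhSOST, 3 were called, all lower, with 3.99% of all called (2.66% higher and 1.32% lower). In the mean of the 3 co-cultures, 4 were called, 1 higher and 3 lower, with 7.19% of all called (4.44% higher and 2.75% lower). In the same order of comparisons, the median log2 fold change of the 23 was -0.02, 0.01, 0.07 and -0.03, against 0.00, 0.00, 0.01 and 0.00 for all kept probe sets. All 7 co-culture arrays lay below both untreated arrays at 5 of the 23 probe sets (10.6% of all kept did so) and above them at 3 (13.1% of all kept). The arrays measure PC3 cells in bulk, so fewer cells with a transcript and less of it per cell cannot be told apart.

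**Figure D1:**
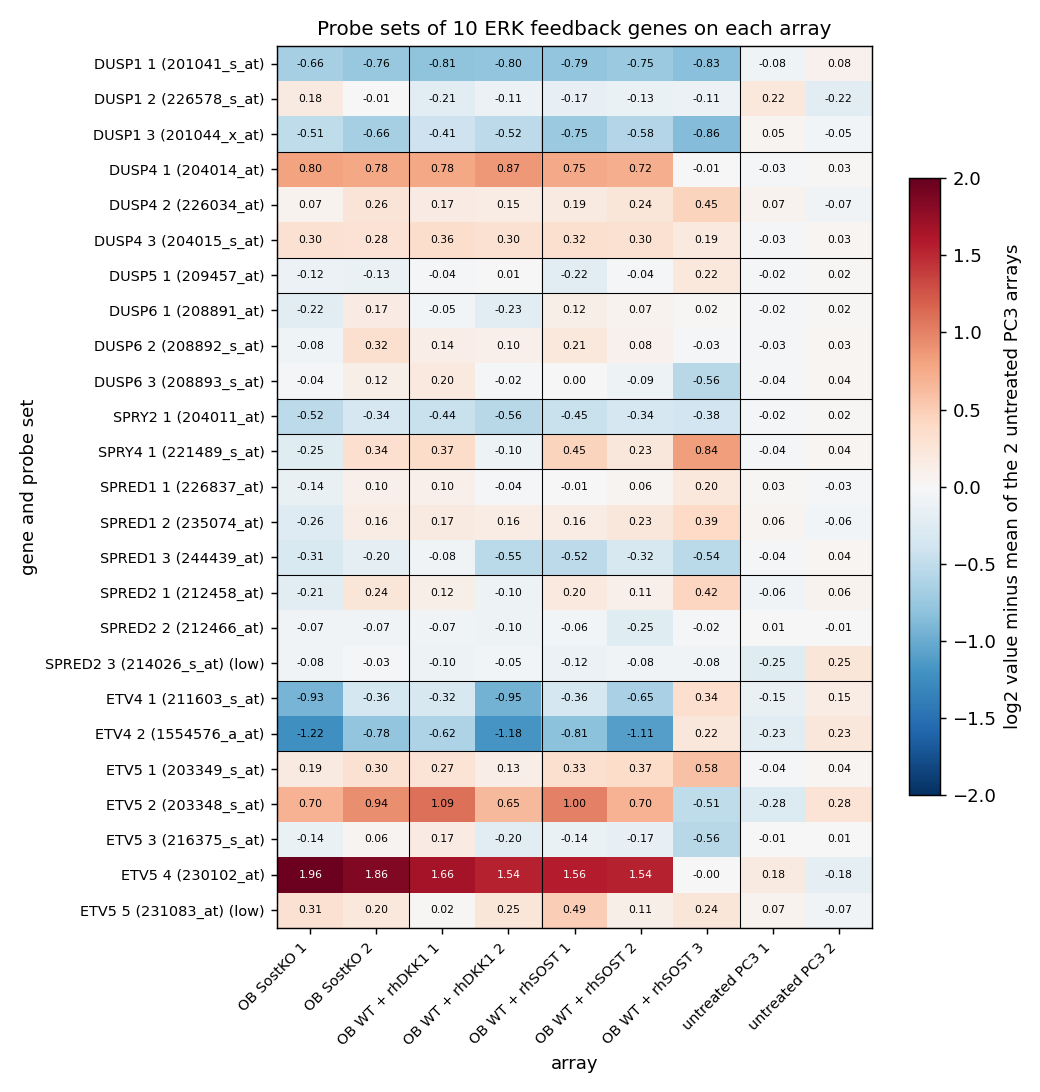
Heat map of the log2 value minus the mean of the 2 untreated PC3 arrays, for the 25 probe sets (down the page, by gene; 2 marked low did not pass the filter) on each of the 9 arrays (across). DUSP1 probe set 1 and SPRY2 are blue on all 7 co-culture arrays, ETV5 probe set 4 is red on 6 of them and 0.00 on OB WT + rhSOST array 3.

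DUSP1, a nuclear phosphatase of p38, JNK and ERK (chr5:172768096-172771195 in GRCh38.p14), had the smallest p of the 23 probe sets. Its probe set 1 gave log2 9.90 and 9.80 in OB SostKO, 9.76 and 9.77 in OB WT + rhDKK1, 9.78, 9.82 and 9.73 in OB WT + rhSOST, and 10.49 and 10.64 in untreated PC3. The co-culture arrays spanned 9.73 to 9.90 and did not reach the lower untreated array. The signal was 1.64-fold lower with OB SostKO (log2 fold change -0.71, standard error 0.085, limma adjusted p = 0.0128), 1.75-fold lower with OB WT + rhDKK1 (-0.80, adjusted p = 0.00897) and 1.73-fold lower with OB WT + rhSOST (-0.79, standard error 0.078, adjusted p = 0.00454). In the mean of the co-cultures it was -0.77 ± 0.068 (standard error, adjusted p = 0.00212). The OB SostKO call was lost without either OB SostKO array or either untreated array, and the OB WT + rhDKK1 call without either of its own arrays (highest adjusted p 0.0741 and 0.103). The OB WT + rhSOST and mean calls held without each of the 9 arrays.

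DUSP1 probe set 3, whose suffix marks probes that can match other transcripts, gave 5.94 and 5.78 in OB SostKO, 6.03 and 5.92 in OB WT + rhDKK1, 5.69, 5.86 and 5.58 in OB WT + rhSOST, and 6.50 and 6.39 in untreated PC3. It too separated the 7 co-culture arrays from the untreated ones. Its log2 fold change was -0.58, -0.46 and -0.73 (adjusted p = 0.0503, 0.0827 and 0.0129), so it passed only with OB WT + rhSOST and in the mean (-0.59, adjusted p = 0.0118), and both of these calls were lost without either untreated array (highest adjusted p 0.105 and 0.120). Probe set 2 gave 6.40 and 6.21 in OB SostKO, 6.01 and 6.11 in OB WT + rhDKK1, 6.06, 6.10 and 6.11 in OB WT + rhSOST, and 6.44 and 6.01 in untreated PC3. Here the 2 untreated arrays were themselves at opposite ends of the range, and the mean log2 fold change was -0.07 (95% interval -0.33 to 0.19, adjusted p = 0.736).

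**Figure D2:**
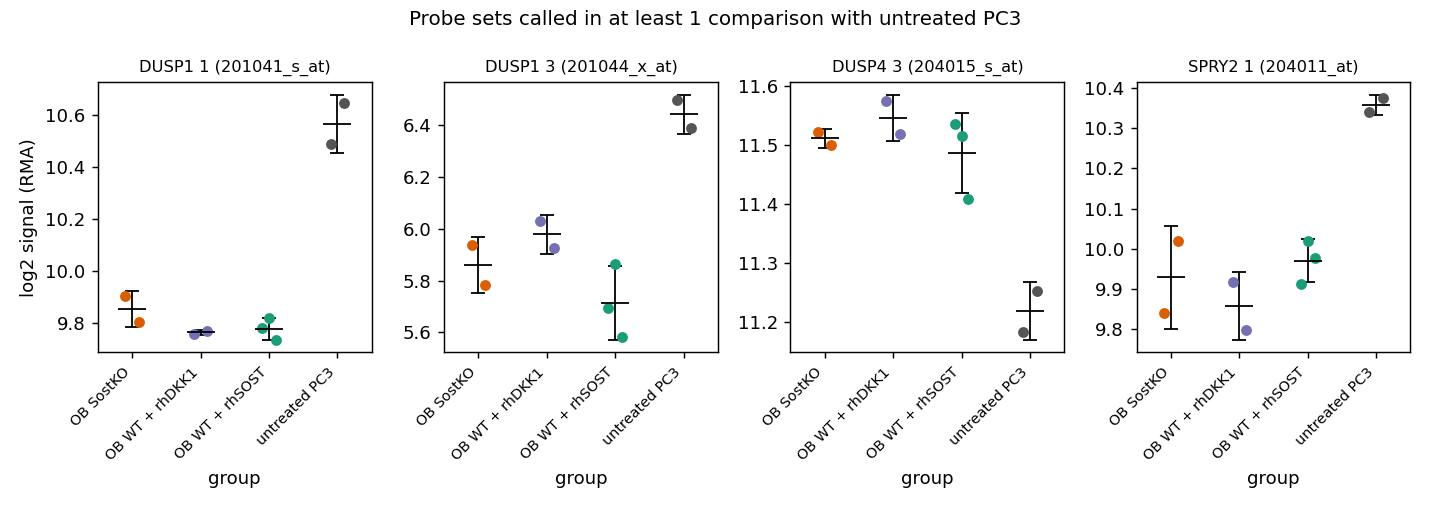
RMA log2 signal (vertical axis, not starting at 0 and with a range of its own in each panel) of the 4 probe sets called in at least 1 comparison with untreated PC3, by group. Points are arrays, horizontal lines are group means and bars are the SD (n = 2, 2, 3 and 2); for DUSP1 probe set 1 the co-culture arrays lie between 9.73 and 9.90 and the untreated arrays at 10.49 and 10.64.

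The promoters of DUSP1 and SPRY2, the genes that fell, are shown with that of DUSP6, a classical ERK target that was not called, to show which known response elements each holds. They are the 250 bases before the RefSeq transcription start (GRCh38.p14, minus strand, 5′ to 3′). Capitals mark matches to the cAMP response element TGACGTCA or its shorter form TGACG on either strand, and the full element contains the shorter form on both strands.
DUSP1, chr5:172771196-172771445: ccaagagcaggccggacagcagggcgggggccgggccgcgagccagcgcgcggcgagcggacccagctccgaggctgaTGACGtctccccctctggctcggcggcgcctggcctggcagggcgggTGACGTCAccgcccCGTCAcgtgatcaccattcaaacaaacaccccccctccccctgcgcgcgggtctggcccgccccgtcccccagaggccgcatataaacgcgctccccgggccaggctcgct
SPRY2, chr13:80341127-80341376: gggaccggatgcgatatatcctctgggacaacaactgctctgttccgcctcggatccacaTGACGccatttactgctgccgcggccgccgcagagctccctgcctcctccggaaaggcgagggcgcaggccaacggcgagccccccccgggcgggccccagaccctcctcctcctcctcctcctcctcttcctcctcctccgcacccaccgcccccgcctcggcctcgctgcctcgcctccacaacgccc
DUSP6, chr12:89352502-89352751: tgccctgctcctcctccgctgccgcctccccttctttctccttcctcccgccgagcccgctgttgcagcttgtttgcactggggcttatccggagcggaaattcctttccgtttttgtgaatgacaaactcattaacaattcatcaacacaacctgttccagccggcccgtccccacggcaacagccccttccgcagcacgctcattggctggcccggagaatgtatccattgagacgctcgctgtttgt
DUSP1 held 1 full element, which 1.65% of the 35116 RefSeq windows of this length held, and further matches to the shorter form, which 21.2% held. The SPRY2 window shown held 1 match to the shorter form, and the DUSP6 window held neither. SPRY2 has 3 windows, 1 for each annotated start, and the other 2 held no match to any motif named here. The AP-1 motif TGANTCA (6.57% of windows), the ETS motif CCGGAAG (8.52%) and the CArG box of serum response factor (1.16%) were absent from all 3 windows, and the EGR motif GCGNGGGCG (8.41%) matched at 2 places in the SPRY2 window alone of the 3. Windows were at hand for 6 of the 10 genes, with none for DUSP4, DUSP5, ETV4 and ETV5. The window of SPRY4, which was not called, also held 1 match to the shorter form and 1 to the EGR motif. Those of SPRED1 and SPRED2 held no match to any of the motifs. Whether the matches go with the changes in signal was not tested. A match is a stretch of letters, and binding was not measured.

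SPRY2, an inhibitor of receptor signaling to RAS and RAF (chr13:80335976-80341126), was the other gene that fell. Its single probe set gave 9.84 and 10.02 in OB SostKO, 9.92 and 9.80 in OB WT + rhDKK1, 9.91, 10.02 and 9.98 in OB WT + rhSOST, and 10.34 and 10.38 in untreated PC3. All 7 co-culture arrays lay below both untreated arrays. The log2 fold change was -0.50 with OB WT + rhDKK1 (limma adjusted p = 0.0417), and for OB WT + rhSOST it was -0.39 (adjusted p = 0.0458). With OB SostKO it was -0.43, with an adjusted p of 0.0645. The mean over the co-cultures was -0.44 ± 0.073 (standard error, adjusted p = 0.0161), a call that was lost only without untreated array 1 or 2. The call with OB WT + rhDKK1 held without 3 of the 9 arrays in turn (the OB SostKO arrays and OB WT + rhSOST array 3), and the call with OB WT + rhSOST without 2 of the 9 (the OB SostKO arrays). SPRY4, its relative (chr5:142310430-142325021), gave 7.75 and 8.33 in OB SostKO, 8.36 and 7.89 in OB WT + rhDKK1, 8.44, 8.22 and 8.83 in OB WT + rhSOST, and 7.95 and 8.03 in untreated PC3. Its co-culture arrays lay on both sides of the untreated ones, and the 2 OB SostKO arrays lay on either side of them. The log2 fold change was 0.05, 0.14 and 0.51 (standard errors 0.25, 0.25 and 0.23), with adjusted p = 0.935, 0.80 and 0.263.

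DUSP4, a nuclear ERK and JNK phosphatase (chr8:29333064-29350684), was the only gene with a called rise at a single probe set, and there only in the mean of the co-cultures. Its probe set 3 gave 11.52 and 11.50 in OB SostKO, 11.57 and 11.52 in OB WT + rhDKK1, 11.54, 11.52 and 11.41 in OB WT + rhSOST, and 11.18 and 11.25 in untreated PC3. Every co-culture array lay above both untreated arrays, and the mean log2 fold change was 0.30 ± 0.064 (standard error, limma adjusted p = 0.0345). Of the 9 fits with 1 array left out, that call held in the one without OB WT + rhSOST array 3 and was lost in the other 8 (highest adjusted p 0.221). The single comparisons gave 0.29, 0.33 and 0.27, with adjusted p = 0.111, 0.0828 and 0.0845.

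DUSP4 probe set 1 differed more, except on 1 array. It gave 12.81 and 12.78 in OB SostKO, 12.79 and 12.88 in OB WT + rhDKK1, 12.76, 12.73 and 12.00 in OB WT + rhSOST, and 11.98 and 12.04 in untreated PC3. Of the 7 co-culture arrays, 6 stood at 12.73 or above, while OB WT + rhSOST array 3 lay between the 2 untreated arrays. The log2 fold changes of 0.79, 0.83 and 0.49 did not pass (adjusted p = 0.128, 0.112 and 0.230). Probe set 2 gave 11.48 and 11.67 in OB SostKO, 11.57 and 11.56 in OB WT + rhDKK1, 11.59, 11.65 and 11.85 in OB WT + rhSOST, and 11.48 and 11.33 in untreated PC3. On this one OB WT + rhSOST array 3 was the highest of all arrays, and the mean log2 fold change was 0.21 (adjusted p = 0.212).

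DUSP5, a nuclear ERK phosphatase (chr10:110497907-110511533), and DUSP6, a cytoplasmic one and among the most direct readouts of ERK (chr12:89347235-89352501), were not called in any comparison. DUSP5 gave 10.31 and 10.30 in OB SostKO, 10.39 and 10.44 in OB WT + rhDKK1, 10.21, 10.39 and 10.65 in OB WT + rhSOST, and 10.41 and 10.46 in untreated PC3. Its OB WT + rhSOST arrays alone spanned more than all other arrays, and the mean log2 fold change was -0.05 (95% interval -0.30 to 0.19, adjusted p = 0.799). DUSP6 probe set 1 gave 10.95 and 11.34 in OB SostKO, 11.12 and 10.93 in OB WT + rhDKK1, 11.28, 11.23 and 11.18 in OB WT + rhSOST, and 11.15 and 11.18 in untreated PC3. Both untreated arrays sat inside the co-culture range, and the mean log2 fold changes of the 3 DUSP6 probe sets were -0.03 (95% interval -0.28 to 0.21), 0.11 (-0.15 to 0.36) and -0.03 (-0.36 to 0.31). A change of DUSP6 in the mean as large as the fall of DUSP1 probe set 1 would lie outside all 3 intervals.

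SPRED1 (chr15:38252836-38357249) and SPRED2 (chr2:65307175-65432599), membrane-bound inhibitors of RAF activation, were not called either. At SPRED1 probe set 1 the arrays ranged from 10.03 to 10.38 in the co-cultures and from 10.14 to 10.20 in untreated PC3, with a mean log2 fold change of 0.03 (95% interval -0.18 to 0.24). The dimmer probe set 3 gave 6.16 and 6.27 in OB SostKO, 6.39 and 5.92 in OB WT + rhDKK1, 5.94, 6.15 and 5.93 in OB WT + rhSOST, and 6.43 and 6.51 in untreated PC3. Its co-culture arrays all lay below the untreated ones, but the log2 fold changes of -0.25, -0.31 and -0.46 did not pass (adjusted p = 0.410, 0.314 and 0.112). SPRED1 probe set 2 had -0.05, 0.16 and 0.26, also without a call. SPRED2 probe set 1 ranged from 9.68 to 10.31 in the co-cultures and from 9.82 to 9.95 in untreated PC3 (mean log2 fold change 0.09, 95% interval -0.22 to 0.40). SPRED2 probe set 2 stood at 4.80 to 5.02 in the co-cultures and 5.04 to 5.05 in untreated PC3, near the filter, which lay at 4.82 to 4.92 depending on the array. SPRED2 probe set 3 was under the filter at 3.09 to 3.58.

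ETV4 (chr17:43527846-43546340) had lower values in 6 of the 7 co-culture arrays, without a call. Its probe set 2 gave 7.94 and 8.38 in OB SostKO, 8.54 and 7.97 in OB WT + rhDKK1, 8.34, 8.05 and 9.38 in OB WT + rhSOST, and 8.92 and 9.39 in untreated PC3. OB WT + rhSOST array 3 alone reached the untreated level. The log2 fold changes were -1.0, -0.90 and -0.57, with standard errors of 0.41, 0.41 and 0.38 and adjusted p = 0.245, 0.288 and 0.445. Probe set 1 gave 8.41 and 8.98 in OB SostKO, 9.02 and 8.39 in OB WT + rhDKK1, 8.98, 8.69 and 9.67 in OB WT + rhSOST, and 9.19 and 9.49 in untreated PC3. The 2 probe sets moved alike (r = 0.963 over the 9 arrays, as a description), and the log2 fold changes of probe set 1 were -0.64, -0.63 and -0.22.

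ETV5 (chr3:186046314-186109089), close kin of ETV4, had the largest log2 fold change of all 23 probe sets in each comparison with untreated PC3, at probe set 4. That probe set gave 7.54 and 7.44 in OB SostKO, 7.24 and 7.11 in OB WT + rhDKK1, 7.14, 7.11 and 5.58 in OB WT + rhSOST, and 5.76 and 5.39 in untreated PC3. The same 6 co-culture arrays stood more than 1 log2 unit above the untreated arrays, and OB WT + rhSOST array 3 lay between the untreated ones. With all arrays the differences of 1.91, 1.60 and 1.03 log2 units, with standard errors of 0.46, 0.46 and 0.42, and their mean of 1.51 did not pass (adjusted p by limma = 0.0867, 0.124, 0.218 and 0.0504). ETV5 probe set 2 gave 8.99 and 9.23 in OB SostKO, 9.39 and 8.95 in OB WT + rhDKK1, 9.30, 8.99 and 7.79 in OB WT + rhSOST, and 8.02 and 8.57 in untreated PC3. Again 6 arrays were above both untreated ones, and OB WT + rhSOST array 3 was below them. ETV5 probe set 1, the brightest, behaved otherwise on that array: it gave 9.22 and 9.33 in OB SostKO, 9.30 and 9.16 in OB WT + rhDKK1, 9.35, 9.40 and 9.61 in OB WT + rhSOST, and 8.99 and 9.07 in untreated PC3. All 7 co-culture arrays lay above both untreated ones there, with log2 fold changes of 0.24, 0.20 and 0.43 (adjusted p = 0.275, 0.355 and 0.0559). Probe set 3 gave 6.56 to 7.29 in the co-cultures and 7.10 to 7.13 in untreated PC3 (mean log2 fold change -0.11, adjusted p = 0.650), and probe set 5 was under the filter at 4.24 to 4.80.

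**Figure D3:**
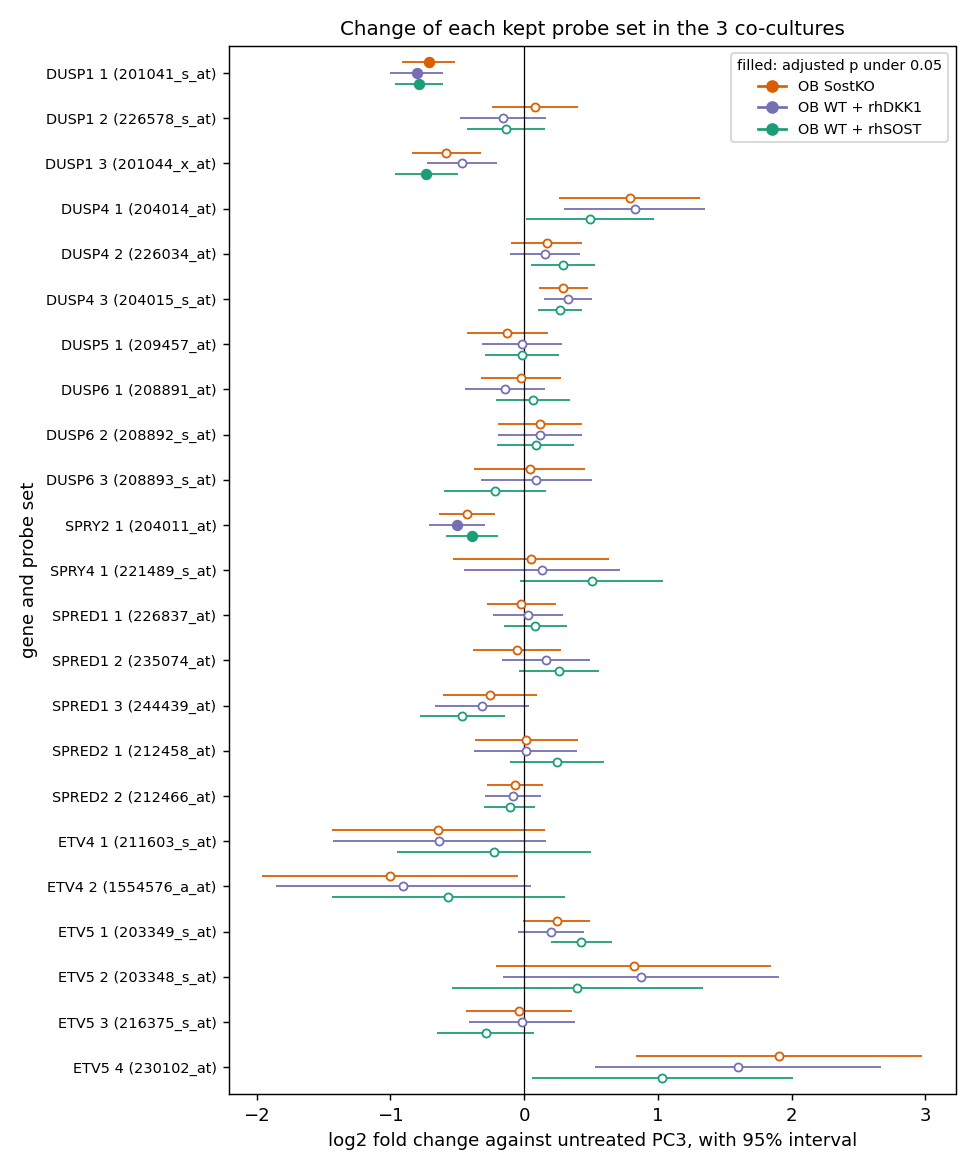
Log2 fold change against untreated PC3 (horizontal axis) with its 95% interval for the 23 kept probe sets, for each of the 3 co-cultures. Filled points passed an adjusted p under 0.05: DUSP1 probe set 1 in all 3, DUSP1 probe set 3 in OB WT + rhSOST, and SPRY2 in OB WT + rhDKK1 and OB WT + rhSOST; ETV5 probe set 4 lies farthest from 0 with the widest intervals.

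OB WT + rhSOST array 3 stood apart from the other 6 co-culture arrays. At 18 of the 23 probe sets (78.3%) it lay outside the range of those 6, against 47.9% of all kept probe sets, while each of the other co-culture arrays did so at 1 to 10 of the 23 and at 18.7% to 44% of all. Its mean correlation with the other 6 was 0.986, against 0.993 to 0.995 for those. Its poly-A controls and ACTB difference were within the range of the other co-culture arrays, and its 3′ minus 5′ signal of GAPDH was the highest of all arrays at 0.42, with 0.12 to 0.21 on the other 6 and 0.15 and 0.24 on the untreated arrays. The part of that difference in the results was not tested. Relative to the mean of the other 6, the array was lower by 1.69 at ETV5 probe set 4 (difference -1.69), by 1.36 at ETV5 probe set 2 (-1.36) and by 0.79 at DUSP4 probe set 1 (-0.79), and higher by 1.18 at ETV4 probe set 2, by 0.93 at ETV4 probe set 1 and by 0.66 at SPRY4. DUSP1 probe set 1 and SPRY2 differed by -0.07 and 0.06.

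All groups share 1 estimate of the spread in the fit. Without this array, 4 of the 23 probe sets were called with OB SostKO (2 lower and 2 higher, against 1.56% and 2.78% of all kept, 4.34% together), 4 with OB WT + rhDKK1 (2 lower and 2 higher, against 1.37% and 2.64%, 4.01% together), 4 with OB WT + rhSOST (2 lower and 2 higher, against 1.54% and 3.35%, 4.89% together) and 8 in the mean of the co-cultures (4 lower and 4 higher, against 4.34% and 7.34%, 11.7% together). ETV5 probe set 4 then stood 1.91, 1.60 and 1.55 log2 units above untreated PC3 (standard error 0.13, limma adjusted p = 0.00206, 0.00318 and 0.00393), or 3.75-fold, 3.03-fold and 2.93-fold higher signal. DUSP4 probe set 1 had 0.79, 0.83 and 0.74 (standard error 0.078, adjusted p = 0.00584, 0.00516 and 0.00659). In the mean, ETV4 probe set 2 was called lower (-0.95, adjusted p = 0.0267) and ETV5 probe set 2 higher (0.85, adjusted p = 0.0280). Among the 9 fits with 1 array left out, these calls at ETV5, DUSP4 probe set 1 and ETV4 came only in this one. The array was singled out after its values were seen, so leaving it out lowers the spread at these probe sets by construction. No support is drawn from these calls. DUSP1 probe set 1 kept its call in every comparison with untreated PC3, and probe set 3 was also called with OB SostKO (adjusted p = 0.0277). SPRY2 kept its calls with OB WT + rhDKK1 and in the mean, but not with OB WT + rhSOST (-0.39, adjusted p = 0.0645). Nothing in the labels sets this array apart.

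Probe sets of 1 gene were compared by taking, on each array, the log2 value of each other probe set minus that of the gene's brightest one, over 13381 such pairs of 7407 genes. Of the 13 pairs of the feedback genes, which cover 7 of the 10, none was called for OB SostKO (0.00747% of all pairs were), for OB WT + rhDKK1 (0.0149%), for OB WT + rhSOST (1.05%) or in the mean (2.54%), while 4, 5, 5 and 5 had an unadjusted p under 0.05 (of 2284, 2079, 2434 and 2886 pairs in all). The DUSP1 pair of probe sets 2 and 1 came nearest, with fold changes that differed by 0.70 ± 0.14 in the mean (standard error, limma adjusted p = 0.0531). At ETV5, probe set 4 exceeded probe set 1 by 1.22 ± 0.44 (adjusted p = 0.168). Without OB WT + rhSOST array 3, that ETV5 pair differed in each comparison (1.67, 1.40 and 1.20, adjusted p = 0.00853, 0.0196 and 0.0224). In the mean, 5 pairs then differed: the ETV5 pair (1.42, adjusted p = 0.00424), DUSP4 probe sets 2 and 3 against probe set 1 (-0.60 and -0.47, adjusted p = 0.0180 and 0.0190), DUSP1 probe set 2 (0.69, adjusted p = 0.0343) and ETV4 probe set 2 (-0.36, adjusted p = 0.0481). That array was singled out after its values were seen, and the share of all pairs called without it is not given here. The pairs called without it therefore do not tell whether the feedback genes differed more often than other genes. In the mean with all arrays, the fold changes had 1 sign at all 3 probe sets of DUSP1 and of DUSP4, at both of ETV4 and at 3 of the 4 kept ETV5 probe sets. They had both signs at DUSP6 (-0.03, 0.11 and -0.03), SPRED1 (0.03, 0.12 and -0.34) and the kept probe sets of SPRED2 (0.09 and -0.09). Over the 9 arrays, r with the brightest probe set ran from 0.963 at ETV4 and 0.892 at DUSP4 probe set 3 to -0.60 at ETV5 probe set 3, as a description of arrays that share their groups.

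**Figure D4:**
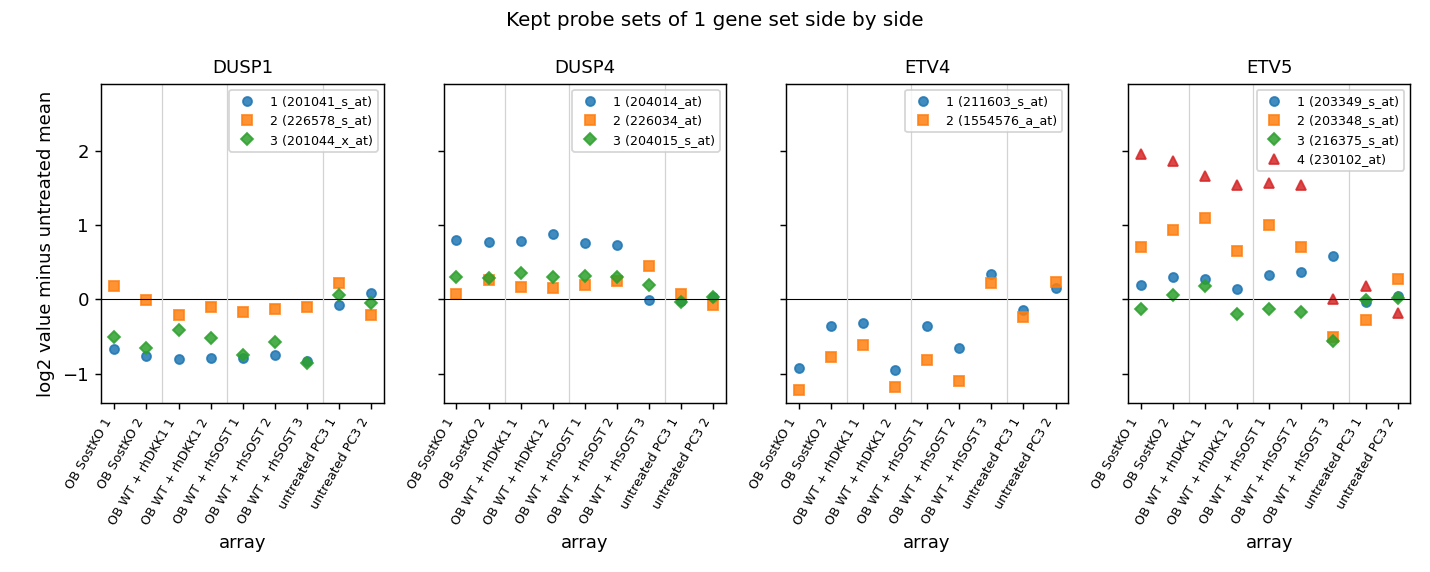
Log2 value minus the mean of the untreated PC3 arrays (vertical axis) on each array (horizontal axis), for the kept probe sets of DUSP1, DUSP4, ETV4 and ETV5, 1 panel per gene and 1 marker per probe set. On OB WT + rhSOST array 3, ETV5 probe set 4 and DUSP4 probe set 1 lie at the untreated level (0.00 and -0.01) while ETV5 probe set 1 and DUSP4 probe set 2 lie at 0.58 and 0.45.

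The co-cultures were also compared directly. Between OB SostKO and OB WT + rhSOST, between OB WT + rhDKK1 and OB WT + rhSOST, and between OB SostKO and OB WT + rhDKK1, limma called 0 of the 23 probe sets and 0 of all kept ones (0%). At an unadjusted p under 0.05 there were 1, 1 and 0 of the 23, with 1165, 791 and 290 of all kept. These were SPRED1 probe set 2, with 9.56 ± 0.30 in OB SostKO (SD, n = 2) and 9.87 ± 0.12 in OB WT + rhSOST (SD, n = 3) (log2 fold change -0.31, limma adjusted p = 0.843), and DUSP1 probe set 3, higher by 0.27 in OB WT + rhDKK1 than in OB WT + rhSOST (adjusted p = 1). At SPRED1 the OB SostKO arrays stood at 9.35 and 9.77, so the higher of them reached the lowest OB WT + rhSOST array. For DUSP1 probe set 1 the differences were 0.08 (95% interval -0.10 to 0.25), -0.01 (-0.19 to 0.16) and 0.09 (-0.11 to 0.29), and for SPRY2 they were -0.04 (-0.23 to 0.15), -0.11 (-0.30 to 0.08) and 0.07 (-0.14 to 0.28). At ETV5 probe set 4 the intervals were wider, with 0.87 (-0.10 to 1.85), 0.57 (-0.41 to 1.54) and 0.31 (-0.76 to 1.38). Without OB WT + rhSOST array 3 these differences were 0.36 (0.06 to 0.65), 0.05 (-0.25 to 0.34) and 0.31 (0.01 to 0.61), each with an adjusted p of 1.

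Other genes of the pathway were read at the brightest kept probe set of each gene, in the same fit. Of 14 other ERK output genes measured, 1 was called lower in the OB SostKO comparison, 2 in that of OB WT + rhDKK1 and 3 in that of OB WT + rhSOST, and none was called higher (1.88%, 2.05% and 4.37% of 14863 genes were called in either direction). HBEGF, a ligand of the EGF receptor and itself an ERK target, gave 9.32 and 9.40 in OB SostKO, 9.33 and 9.26 in OB WT + rhDKK1, 9.47, 9.47 and 9.59 in OB WT + rhSOST, and 10.30 and 10.31 in untreated PC3. Every co-culture array lay below both untreated arrays, with log2 fold changes of -0.95, -1.01 and -0.79 (adjusted p = 0.00416, 0.00237 and 0.00371). FOS, an immediate early AP-1 subunit, was called with OB WT + rhDKK1 (-0.56) and OB WT + rhSOST (-0.62), and MYC with OB WT + rhSOST (-0.42). With OB SostKO, FOS and MYC had -0.48 and -0.43 (adjusted p = 0.0674 and 0.0532). FOS was dim, at 4.37 to 4.67 on the co-culture arrays, under the filter, which lay at 4.82 to 4.92 depending on the array. Untreated PC3 averaged 5.02, so FOS passed the filter through the untreated arrays alone. Its fold changes thus compare values near or under the filter, and their size is uncertain. The median of the 14 was -0.14, -0.15 and -0.17, against -0.01, -0.01 and 0.02 over all genes.

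Of 5 further feedback inhibitors measured, ERRFI1, which blocks the EGF receptor, fell in all 3 co-cultures (-0.47, -0.44 and -0.43, limma adjusted p = 0.0317, 0.0328 and 0.0188), and IL17RD, the Sef protein, rose with OB WT + rhSOST (0.62, adjusted p = 0.0365). Among 8 other MAP kinase phosphatases, none was called in a single co-culture, and DUSP10, a phosphatase of p38 and JNK, was lower in the mean (-0.49, adjusted p = 0.0281, with 7.53% of genes called). None of 13 measured genes of the core RAS-ERK cascade was called in any comparison with untreated PC3 (0 also in the mean), and their medians were -0.02, -0.07 and 0.06. In the JNK and p38 branches, 1 of 6 was called, MAP2K6, a kinase of p38, which was higher in each co-culture (0.58, 0.53 and 0.56, adjusted p = 0.0363, 0.0419 and 0.0188).

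The genes most like the feedback genes were sought for the 3 whose brightest probe set had the smallest p in the mean of the co-cultures, by Pearson r over the 9 arrays among 14853 other genes. For DUSP1 they were DDX28, an RNA helicase (r = 0.995), the chemokine CXCL1 (0.992) and the cytokine IL6 (0.992). For SPRY2 they were the transcription factor GATA6 (0.993), GCH1, the first enzyme of tetrahydrobiopterin synthesis (0.988), and SRPX2 (0.986). For DUSP4 probe set 1 they were the lipid phosphatase PLPP3 (0.991), ZNF514 (0.985) and the microtubule protein MAP6 (0.984). The 9 points share the 2 untreated arrays. Within the 7 co-culture arrays DUSP1 had r = 0.908 with DDX28, 0.622 with CXCL1 and 0.582 with IL6. There r was 0.897 to 0.946 for the 3 genes of SPRY2 and 0.968 to 0.996 for those of DUSP4. DUSP4 probe set 1 stood at 12.73 to 12.88 on 6 of these 7 arrays and at 12.00 on OB WT + rhSOST array 3, which weighs heavily in its r. Over the 9 arrays, the rank correlation (Spearman) was 0.933, 0.661 and 0.683 for the genes of DUSP1, in the order named. It was 0.933, 0.95 and 0.954 for those of SPRY2, and 0.95, 0.683 and 0.803 for those of DUSP4. At Pearson r over 0.9 on the 9 arrays there were 259, 222 and 197 genes.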

How the data were processed

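PC3 RNA of 9 Affymetrix Human Genome U133 Plus 2.0 arrays was read from the deposited table, whose log2 values the authors made with RMA (version not given in the sources used here). RMA sets all arrays to 1 distribution, so a shift of all genes cannot be seen. Precision is limited by how few arrays there are. Groups and replicate numbers came from the sample labels, which call arrays of a group biological replicates. Whether these were separate cultures is not given, so p-values measure the spread between these arrays, which may be technical.

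The software was R 4.3.3 and limma 3.58.1. The 62 control probe sets were left out, and low probe sets were removed unless 2 or more arrays had them at or above that array's 40th percentile. One linear model with 4 group means took in all 9 arrays (lmFit, eBayes, 8.00 degrees of freedom a probe set). The median standard error of OB SostKO against untreated PC3 was 0.12. Gene names came from the platform annotation, updated to RefSeq symbols of GRCh38.p14; probe sets with several symbols (1307 kept) or none (4419) were given no gene. All probe sets of the 10 genes are named, and of each other list the genes called. Members and lists were chosen with earlier results of these data known. The procedure was tested on simulated data. Alternatives covered the filter, cyclic loess normalization, 1 value per gene, the arrays in the fit, an intensity trend, a replicate block, the methods' paired t-test, Tukey comparisons, other thresholds and leaving out each array. Some genes of the lists were not analysed here. Promoters are RefSeq windows.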

Additional observations from a re-analysis of the deposited data

How the results depend on the processing

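The direction of single log2 fold changes was compared with each array left out, after cyclic loess, with only the groups compared and with the replicate block. Every called fold change of a feedback probe set kept its direction there. In the other alternatives it was not compared for single probe sets. Of 828 single values with 1 array left out, 784 kept their side of the threshold, 33 lost it and 11 gained it. Of 253 after cyclic loess, with only the groups compared or with the replicate block, 236 kept it, 8 lost it and 9 gained it. The 2 feedback probe sets under the filter were tested only in the alternative without a filter.

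Counts of called feedback probe sets follow in the order OB SostKO, OB WT + rhDKK1, OB WT + rhSOST and mean of the co-cultures (1, 2, 3 and 4 as reported). With each array left out in turn they ran from 0 to 4, 0 to 4, 1 to 4 and 1 to 8. Without a filter OB WT + rhDKK1 had 1. With a 60th percentile filter OB SostKO had 3. With the brightest probe set or the mean of the probe sets of a gene, OB SostKO had 2 and 3 genes. With the mean of its probe sets, DUSP4 was called higher in each co-culture (0.42, 0.44 and 0.35, limma adjusted p = 0.0432, 0.0341 and 0.0425). In the mean of the co-cultures it then had 0.40 (adjusted p = 0.0120). With only the groups compared, OB SostKO had 1, now ETV5 probe set 4 in place of DUSP1, OB WT + rhDKK1 had 0 and OB WT + rhSOST had 1. An intensity trend gave 2 for OB SostKO and 5 for OB WT + rhSOST. Adjusted p under 0.10 gave 4, 4, 5 and 7, and unadjusted p under 0.05 gave 7, 6, 9 and 9 of the 23 (18.9%, 19%, 20.9% and 24.7% of all kept probe sets), with 1 in OB SostKO against OB WT + rhSOST and 1 in OB WT + rhDKK1 against OB WT + rhSOST. With a fold of 2 as well, adjusted p gave 0 in all 4 and unadjusted p gave 2, 1, 1 and 1. Tukey comparisons gave 4, 4 and 5 unadjusted and 0, 0 and 0 adjusted. The methods' paired t-test gave 7 for OB SostKO, 2 for OB SostKO against OB WT + rhSOST and 1 for OB SostKO against OB WT + rhDKK1 unadjusted, and 0 in the 3 co-cultures adjusted. Of the pairs of probe sets of 1 gene, 1 was called in the mean after cyclic loess, and with each array left out the counts ran from 0 to 1, 0 to 2, 0 to 1 and 0 to 5. The cause of these changes was not tested, except that fewer arrays or a shared value per gene change what is tested. In this paragraph the share of all kept probe sets stands beside the counts only for unadjusted p. The other counts therefore do not tell whether the feedback genes changed more often than other genes.

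The labels number the replicates, but same-numbered arrays did not deviate together: r of their deviations ran from -0.54 to 0.43 over 12 pairs, with 4 over 0.1. Deviations in a group of 2 arrays mirror each other, so the values -0.54, -0.37 and 0.22 are repeated among the pairs and the 12 are not independent. A replicate block, in which OB WT + rhSOST array 3 has a number of its own and so drops out, gave 3 called for OB SostKO, 3 for OB WT + rhDKK1, 4 for OB WT + rhSOST and 5 in the mean, with 1.74%, 1.68%, 2.05% and 7.22% of all kept probe sets called, and 1, 1, 1 and 3 pairs. The share of all pairs called with that block is not given here. A crossed replicate block, chosen after seeing the data, gave 8, 9, 10 and 10 of the 23, with 10.5%, 10.1%, 10.2% and 19.1% of all kept probe sets called. It puts together arrays whose deviations mostly correlated with a positive r, so it can lower the spread by construction. OB WT + rhSOST array 3 drops out here too, and no conclusion is drawn from these counts.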
